A study of Aedes aegypti with 20 samples.

Results

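Female pedicels were compared with female heads in the yellow fever mosquito Aedes aegypti. The pedicel is the antennal segment that houses Johnston's organ, the hearing organ. The comparison used the 5 libraries labelled Female pedicel and the 5 labelled Female head, 10 of the 20 RNA sequencing libraries of the study. The other 10 came from male pedicels and male heads and were used here only where the sexes are set side by side. All mosquitoes were of the Liverpool genotype, and they were frozen at zeitgeber time 12 after 2 days in an incubator. The females had taken no blood meal, and the males were virgin. The labels do not give the number of animals in a library and do not say that the 5 repeats of a tissue were taken from different mosquitoes. The p-values therefore measure the spread between these libraries, which may be technical.

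Johnston's organ is a chordotonal organ, in which vibration of the antenna stretches ciliated sensory neurons that are held by scolopale and cap cells. A mosquito head holds the brain and the compound eyes as well as muscle, glia, fat body and cuticle. The labels call the second tissue head, but its count columns are named female_brain, and those of the pedicels female_JO. Whether whole heads or brains were taken was not tested. In bulk tissue, fewer cells of a type and less RNA per cell cannot be told apart. The table names genes by ID alone. None of its 19804 gene IDs matched the RefSeq gene table used here (0 matches), so no name or role is given to any ID, and lists of hearing, cilium, eye or muscle genes were not analysed here. For the same reason the labelled tissues could not be checked against marker genes of known identity, and no sequence is shown.

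Female libraries held from 5362568 to 7825766 estimated counts. Of the 19804 gene IDs, 10595 had enough counts to be tested and 9209 were left out, among them 2558 without a count in any female library. Values are given as CPM, counts scaled to a common library size after TMM adjustment, which sets libraries of different composition on 1 scale. The first principal component of log2 CPM held 56.9% of the variance and placed all pedicels on one side and all heads on the other. The pedicels varied more among themselves than the heads, with a biological coefficient of variation of 0.31 against 0.20. Rank correlations across genes ran from 0.888 to 0.968 between pedicels and from 0.959 to 0.982 between heads.

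Female pedicel 2 stood apart from the other female pedicels. Its mean rank correlation with the heads was 0.825, against 0.878 to 0.913 for the other 4 pedicels. A set of 31 genes with at least 50 counts had over 80% of their counts over the 10 female libraries in this library alone, and no other pedicel library held such a gene (0 each). These 31 genes were chosen for this after their values were seen, so that their female values are a description. They summed to 637 CPM of unscaled counts in female pedicel 2. They summed to 5.77 to 21.1 CPM in the other 4 female pedicels and to 0.714 to 2.30 CPM in the female heads. In the males, whose values did not choose them, they stood at 58.95 to 92.7 CPM in heads and at 101, 736, 717, 141 and 67.7 CPM in pedicels 1 to 5. Every male library was above the other 4 female pedicels and all female heads, and female pedicel 2 lay nearest to male pedicels 2 and 3. Whether material of males entered this library was not tested, nor was the part of these transcripts in the results. Without female pedicel 2, the comparison called 1645 genes higher and 1575 lower in the pedicel, against 1823 and 1736 with it. Female pedicel 1 was the closest to the heads by mean rank correlation, at 0.913. Without female pedicel 1, the comparison called 1967 genes higher and 1833 lower.

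The female pedicels also divided by a group of transcripts that cannot be assigned to 1 gene. A set of 263 transcripts from 244 gene IDs shared its values in every library with a transcript of a different gene ID, and which copy the reads came from is not known. They held 6.13% of the counts in female pedicel 1 and 10.01% in pedicel 2, and 24.6%, 26.2% and 21.3% in pedicels 3, 4 and 5. In female heads they held 2.61% to 3.72%. Every pedicel was above every head. The means were 17.6 ± 9.02% in pedicels and 3.18 ± 0.463% in heads (SD over 5 libraries of each tissue). A two-sided exact permutation test gave p = 0.0079, the smallest that 5 against 5 libraries allow.

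**Figure D1:**
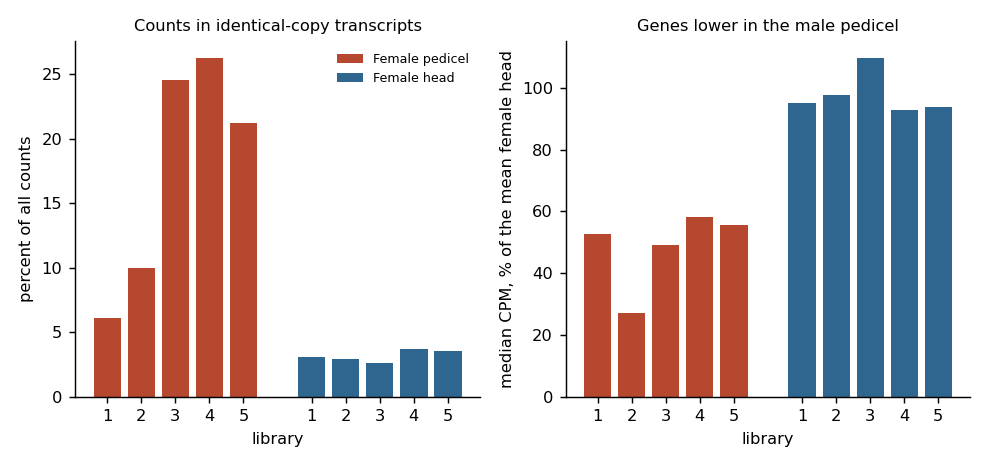
Left, percent of all counts in transcripts whose values are identical to those of another gene ID, and right, median CPM of 493 genes that were at least 4-fold lower in male pedicels than in male heads, in percent of the mean female head. Each bar is 1 female library. Pedicels 3 to 5 hold over 20% identical-copy counts, and pedicel 2 has the lowest level on the right, at 27.1%.

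The tissue comparison asked which transcripts set the female hearing organ apart from the head. Of the 10595 genes, 3559 differed (33.6%). In the female pedicel 1823 were higher than in the head (17.2%) and 1736 were lower (16.4%), in edgeR's quasi-likelihood test at a Benjamini-Hochberg adjusted p under 0.05. Although the numbers were close, the sizes were not. A difference of at least 4-fold was reached by 442 of the higher genes (4.17% of genes tested) and by 9 of the lower ones (0.0849%). At least 16-fold was reached by 173 higher genes and by no lower gene (0 of 1736). The median log2 fold, pedicel over head, was 1.01 among the higher genes and -0.70 among the lower ones, and 0.07 over all genes tested. Regardless of the test, all 5 pedicels were above all 5 heads for 1290 genes (12.2%) and below them for 1502 (14.2%). With library totals in place of TMM, the median over all genes moved to -0.46 and the balance turned to 681 higher and 4247 lower. The number of genes at least 4-fold lower was then 93, and the 4-fold higher genes numbered 344. Without female pedicel 1 or 5, 21 genes were at least 4-fold lower, without pedicel 4 there were 20, and without pedicel 2 or head 2 there were 16.

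**Figure D2:**
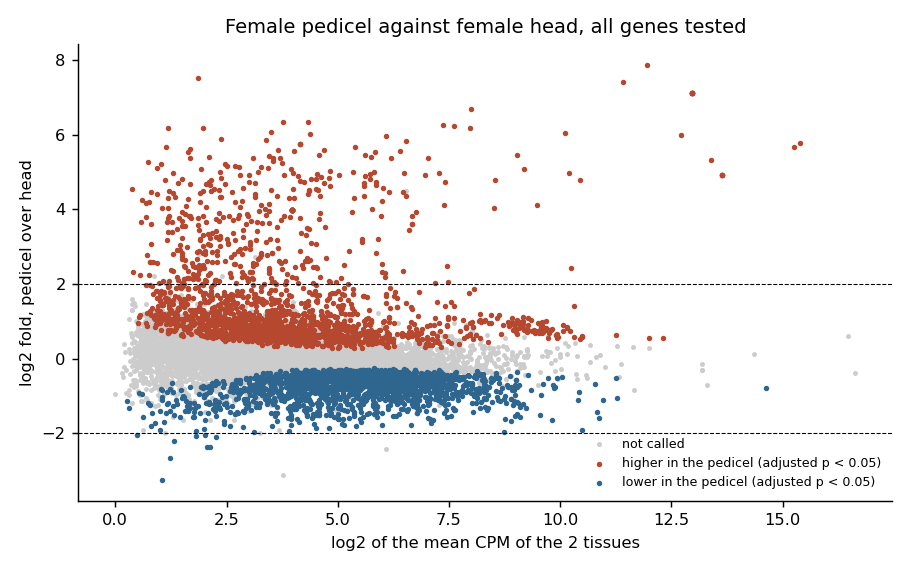
Log2 fold of pedicel over head against the log2 mean CPM of both tissues for the 10595 genes tested, 1 point per gene. Dashed lines mark a 4-fold difference. The 442 called genes above the upper line form a long tail that reaches a log2 fold of 7.88, while 9 called genes lie below the lower line, all of them at low levels.

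The genes that marked the pedicel were not limited to rare transcripts. Of the 442 genes at least 4-fold higher there, 283 averaged at least 10 CPM in the pedicel, 69 at least 100 CPM and 24 at least 1000 CPM. Their median level was 16.6 CPM in pedicels and 1.42 CPM in heads. Every gene tested had some count in the heads (0 of 10595 without a head count). Such counts can be few, so they do not show that each marker was expressed in the head. Among the gene IDs of low level, 24 had counts in every female pedicel and none in a female head, against 2 the other way round. One of them, AAEL017123, was singled out after its values were seen for the highest minimum among pedicels. It had 57 counts over the 5 pedicels, 9 to 15 in each, and against a floor of 3 counts over the 5 heads its pedicel level was at least 32.4-fold higher. This bound covers counting error only, and AAEL017123 was not among the genes tested.

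Among genes of at least 10 CPM whose tissues did not overlap, the largest folds belonged to transcripts that varied widely between pedicels. AAEL028790 stood at 452, 2940, 8754, 7956 and 7147 CPM in female pedicels 1 to 5, and at 23.7, 21.4, 6.89, 44.0 and 62.3 CPM in heads 1 to 5. Pedicels 3 to 5 were high and pedicel 1 was low, but the tissues did not overlap. The log2 fold was 7.43 (SE 0.92, edgeR adjusted p = 0.00014), from means of 5450 ± 3583 and 31.7 ± 21.6 CPM (SD, n = 5 each). AAEL028689 was next, and 7 gene IDs including it had the same value in every library. It stood at 2156, 7687, 20700, 29600 and 18770 CPM in the pedicels and between 30.7 and 199 CPM in the heads. The order among pedicels was close to that of AAEL028790, with pedicel 1 lowest and pedicel 2 next. Its log2 fold was 7.13 (SE 0.82, adjusted p = 8e-05). The 7 IDs cannot be told apart, so the value cannot be assigned to 1 gene. It is the value of each ID and not the sum over the 7, and each ID counts as 1 of the 442 genes. AAEL028907, singled out as the called gene of the highest pedicel level, had no identical copy but a like profile. It stood at 12810, 44360, 121200, 148500 and 95580 CPM in the pedicels and at 1205 to 2224 CPM in the heads, a log2 fold of 5.78 (SE 0.64, adjusted p = 4.6e-05). The spread was wider in males, on the scale of all 20 libraries. AAEL028790 ran from 41.4 to 12730 CPM in male pedicels and overlapped the male heads (0.756 to 117 CPM). AAEL028689 ran from 300.5 to 65900 CPM and AAEL028907 from 3364 to 252500 CPM, both above all male heads. Each was called higher in the male pedicel (edgeR adjusted p from 0.0054 to 0.012). In all, 47 of the 442 genes had an identical copy, and 395 did not. With all identical-copy transcripts left out before counts were summed, 411 genes were at least 4-fold higher and 9 at least 4-fold lower.

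Other markers were steady between pedicels. Among the 442 genes, 140 had all 5 pedicel values within 2-fold of each other (31.7%), as had 57.5% of all genes tested, and 58 of the 173 genes at least 16-fold higher did. The 3 steady genes described next were chosen after their values were seen. AAEL020342 had the largest fold among the steady genes of at least 10 CPM. It stood at 414, 671, 437, 531 and 467 CPM in pedicels 1 to 5 and at 5.89, 2.89, 2.75, 6.44 and 6.09 CPM in heads 1 to 5. Every pedicel was above every head, with pedicel 2 the highest. The log2 fold was 6.70 (SE 0.30, edgeR adjusted p = 4.6e-08), or 104-fold. AAEL009881 had the highest level among the steady genes at least 16-fold higher, with 1529, 2727, 2937, 2343 and 1907 CPM in the pedicels and 64.5 to 84.3 CPM in the heads. Pedicel 1 was the lowest of its group, and the heads spanned a narrow range. The log2 fold was 4.97 (SE 0.22, adjusted p = 4.6e-08). AAEL010772 had the smallest p-value of all genes. Its pedicel values were 81.9, 102, 94.3, 92.6 and 92.3 CPM and its head values 3.13 to 3.92 CPM, means of 92.7 ± 7.26 and 3.51 ± 0.294 CPM (SD, n = 5 each). The log2 fold was 4.71 (SE 0.11, adjusted p = 4.9e-10).

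**Figure D3:**
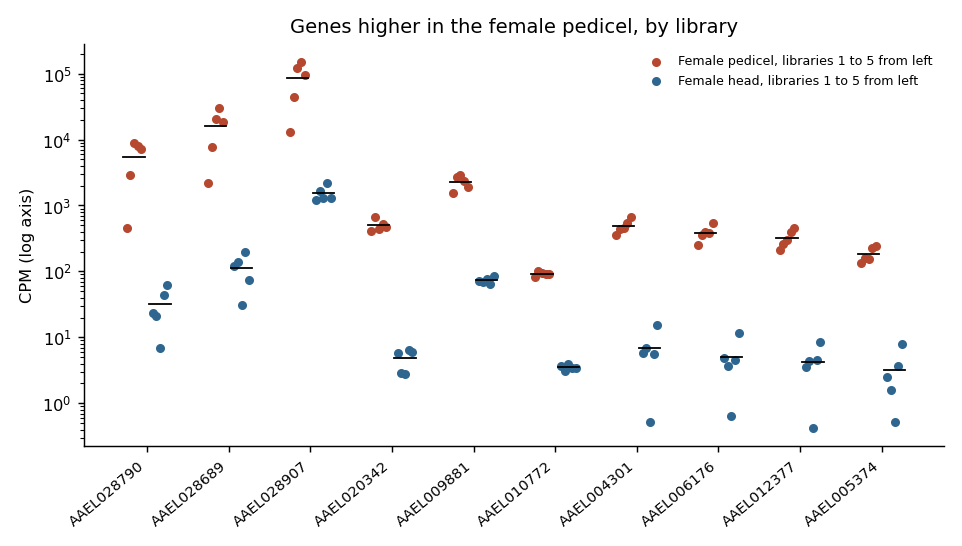
CPM on a log axis of 10 genes higher in the female pedicel, 1 point per library in the order 1 to 5 from the left within each tissue, with a line at the mean of 5. The 3 genes on the left spread over more than 10-fold between pedicels, while AAEL020342, AAEL009881 and AAEL010772 stay within 2-fold.

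A group of 4 highly enriched genes had their extremes in the same libraries. AAEL004301, AAEL006176, AAEL012377 and AAEL005374 were singled out for this after their values were seen. AAEL006176 stood at 248, 362, 391, 384 and 544 CPM in pedicels 1 to 5, and at 4.93, 3.735, 0.636, 4.475 and 11.8 CPM in heads 1 to 5. Head 3 was far below the other heads and head 5 was the highest. AAEL012377 stood at 212, 264, 301, 393 and 451 CPM in the pedicels and at 3.54, 4.34, 0.424, 4.47 and 8.47 CPM in the heads. For all 4 genes head 3 was lowest, head 5 was highest, pedicel 1 was lowest and pedicel 5 was highest. Parts of this were not particular to the 4 genes. Pedicel 1 was also lowest for AAEL028790, AAEL020342, AAEL009881 and AAEL010772, and head 3 also for AAEL028790 and AAEL020342. Pedicel 5 was highest for none of these. The log2 folds were 6.19 (SE 0.59) for AAEL004301, 6.24 (SE 0.55) for AAEL006176, 6.26 (SE 0.53) for AAEL012377 and 5.83 (SE 0.52) for AAEL005374, with edgeR adjusted p from 6.1e-06 to 1.8e-05. In males the levels of the 4 genes were lower. On the scale of all 20 libraries they summed to 1009 to 2009 CPM in female pedicels, 2.26 to 46.4 CPM in female heads, 1.63 to 40.2 CPM in male pedicels and 0.937 to 5.92 CPM in male heads. Male pedicels and female heads overlapped, and the female pedicels lay far above both. Male pedicels were still called higher than male heads for AAEL004301 (log2 fold 3.84, edgeR adjusted p = 0.015), AAEL006176 (3.57, adjusted p = 0.017) and AAEL005374 (2.38, adjusted p = 0.009). AAEL012377 was not tested in males. For each of the tested ones the male tissues overlapped. AAEL004301 stood at 0.466, 1.25, 14.38, 12.45 and 14.09 CPM in male pedicels 1 to 5, against 0 to 2.37 CPM in male heads. The difference between pedicel and head was called unequal in the sexes for AAEL005374 (adjusted p = 0.019) but not for AAEL004301 (0.32), AAEL006176 (0.24) or AAEL012377 (0.42).

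Genes lower in the pedicel were mostly well expressed in the head and had small folds. Of the 1736 lower genes, 1594 averaged at least 10 CPM in the head, 492 at least 100 CPM and 18 at least 1000 CPM, and their median head level was 54.6 CPM. The share of all genes tested at these levels was not computed, and small folds are called more readily at high counts. These levels are therefore a description. Of the 1322 genes called lower with at least 10 CPM in the head and no overlap between the tissues, AAEL014125 had the most negative fold, just short of 4-fold. It stood at 3.99, 0.697, 2.64, 5.26 and 5.07 CPM in pedicels 1 to 5 and at 12.3, 11.9, 16.5, 14.2 and 13.6 CPM in heads 1 to 5. Pedicel 2 was far below the other pedicels, and all were below the heads. The log2 fold was -1.97 (SE 0.35, edgeR adjusted p = 0.0017). It passed 4-fold with limma-voom (-2.23) and without pedicel 4 (-2.16), among others, but was smaller without pedicel 2 (-1.70). AAEL006719 was next, at 105, 268, 55.2, 324 and 120.0 CPM in the pedicels and 478 to 918 CPM in the heads, with a log2 fold of -1.95 (SE 0.42, adjusted p = 0.0054). Its pedicel values were uneven, with pedicels 2 and 4 high and pedicel 3 low. The log2 fold was -2.30 without pedicel 4 and -1.73 without pedicel 3. AAEL018208, singled out for the smallest p-value among lower genes, was more even. It stood at 17.7, 12.7, 12.7, 18.3 and 17.9 CPM in the pedicels and 47.9 to 61.2 CPM in the heads, a log2 fold of -1.78 (SE 0.14, adjusted p = 2.7e-06).

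The 9 genes at least 4-fold lower in the pedicel were all of low level, with means of 2.26 to 7.82 CPM in the head. In 8 of the 9 the tissues did not overlap, as in 1411 of all 1736 genes called lower. AAEL025046 and AAEL024025 were singled out from them after their values were seen. AAEL025046 had the most negative fold, with no counts in pedicels 1, 3 and 5 (0 CPM), 1.05 and 0.842 CPM in pedicels 2 and 4, and 1.91 to 6.22 CPM in the heads. Its log2 fold was -3.25 (SE 0.74, edgeR adjusted p = 0.0068). It rests on few counts, and the log2 fold was -4.16 without pedicel 2 and -2.83 without pedicel 1. AAEL024025 had the smallest p-value of the 9, at 1.05 to 2.17 CPM in pedicels and 5.13 to 9.004 CPM in heads (log2 fold -2.37, SE 0.26, adjusted p = 4.1e-05). Of the 9 genes, 5 had enough counts to be tested in males, and 4 of these were lower in the male pedicel as well. The share among all genes lower in the female pedicel and tested in males was 80.7%.

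The call of the most abundant lower gene was marginal. AAEL003116, singled out for its level, stood at 29010, 11500, 14070, 16550 and 21860 CPM in pedicels 1 to 5 and at 29890 to 33610 CPM in heads. Every pedicel was below every head, pedicel 1 narrowly. The log2 fold was -0.80 (SE 0.27, edgeR adjusted p = 0.043), and the adjusted p rose to between 0.054 and 0.088 when pedicel 2, 3, 4 or 5 or any of the 5 heads was left out. Its fold then lay between -0.86 and -0.67 on the log2 scale. DESeq2 gave an adjusted p of 0.0017 and limma-voom 0.015, in a range of 0.0017 to 0.22 over all changes of setting.

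**Figure D4:**
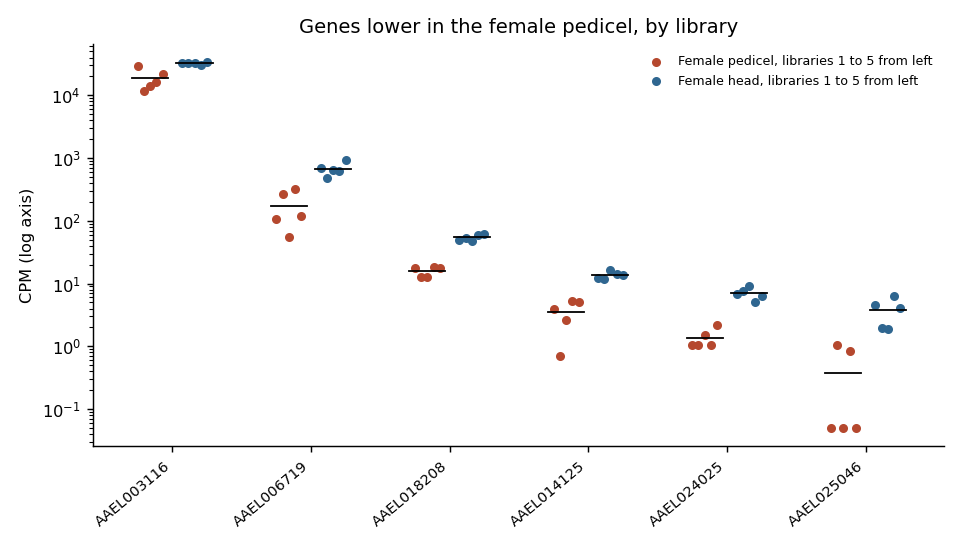
CPM on a log axis of 6 genes lower in the female pedicel, 1 point per library in the order 1 to 5 from the left within each tissue, with a line at the mean of 5. Libraries without a count are drawn at 0.05 CPM. No pedicel reaches the level of a head in any of the 6 genes, and AAEL025046 has 3 pedicels without a count.

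Males gave a test of these differences in libraries that the female comparison did not use. The same fit of 5 male pedicels and 5 male heads tested 10637 genes and called 24.9% higher and 25.4% lower in the pedicel, with 5.74% at least 4-fold higher and 4.77% at least 4-fold lower. Of the genes higher in the female pedicel, 1723 were tested in males, and 1220 (70.8%) were higher in the male pedicel too, while 18 were lower. Of the genes at least 4-fold higher in females, 384 were tested in males, 353 were higher there, 327 of them by at least 4-fold, and none was lower (0 of 384). Of the genes lower in the female pedicel, 1727 were tested in males, and 1393 (80.7%) were lower in the male pedicel and 28 higher. The direction of the difference was thus mostly shared by the sexes in both groups of genes.

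The sizes of the differences in the sexes are given next as a description. Of the genes tested in both sexes, those higher in the female pedicel had a median log2 fold of 0.97 in females and 1.06 in males, and the lower ones -0.69 and -0.91. The 517 genes at least 4-fold higher in male pedicels had a median log2 fold of 2.79 in females, against 3.32 in males. In females 478 of the 517 (92.5%) were called higher and none lower (0 of 517), where 17.2% of all genes were higher. The 493 genes at least 4-fold lower in male pedicels had a median of -2.51 in males and -1.03 in females. Of these, 304 (61.7%) were lower in the female pedicel, against 16.4% of all genes, 3 of them by at least 4-fold. The male values chose both groups, so the male medians are a description, and the sizes in the sexes are not compared by a test here. In female pedicels 1 to 5 the 493 genes stood at a median of 52.7%, 27.1%, 49.2%, 58.1% and 55.7% of their mean level in female heads. Pedicel 2 was the lowest, and the other 4 lay close together. The 517 genes stood at a median of 438%, 751%, 741%, 656% and 625% of their mean level in female heads in pedicels 1 to 5. Here pedicel 1 was the lowest. Without pedicel 2 the median log2 fold of the 493 genes in females was -0.91.

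A test of the interaction of sex and tissue over all 20 libraries asked which differences were unequal in the sexes. It called 1352 of 11381 genes (11.9%), or 2694 without male pedicel 2. That library lay nearer to the male heads than the other male pedicels did in many of the genes described. It held 11380 CPM of AAEL003116, against 994 to 2013 CPM in the other male pedicels and 29610 to 34880 CPM in male heads. For AAEL009881 it held 4804 CPM, against 12110 to 14840 CPM. It held 18.04 CPM of AAEL018208, against 2.60 to 4.17 CPM, and 5.63 CPM of AAEL014125, against 0 to 0.677 CPM. AAEL006661 did not follow this, at 15.1 CPM, within the range of the other male pedicels. AAEL004301, AAEL006176, AAEL012377 and AAEL005374 were lower still in male pedicel 1. AAEL025046 could not show it, at 0 CPM in male pedicels 2, 3 and 4. The male comparison above included male pedicel 2. The cause was not tested. Among the 442 genes at least 4-fold higher in the female pedicel, the male difference was larger for 44 and smaller for 30. The female values chose these 442 genes, so the 2 counts are a description. On the scale of all 20 libraries, AAEL006661 stood at 90.1 to 183 CPM in female pedicels, 11.4 to 17.1 CPM in male pedicels, 11.1 to 13.6 CPM in female heads and 9.45 to 11.9 CPM in male heads. Only the female pedicels stood above the other 3 groups, which overlapped, and the interaction log2 fold, male minus female, was -2.81 (SE 0.25, edgeR adjusted p = 1.9e-06). In the fit of males alone, AAEL006661 was called higher in the pedicel by a small fold (log2 fold 0.37, edgeR adjusted p = 0.044). The pedicel mean of AAEL017043 was 10.8 ± 2.77 CPM (SD) over 5 female libraries and 0.319 ± 0.416 CPM over 5 male ones. Female heads averaged 0.167 ± 0.0598 CPM and male heads 0.285 ± 0.328 CPM. Its interaction log2 fold was -6.23 (SE 1.12, adjusted p = 0.0015), the most negative among the 442. The size of this value rests on few counts outside the female pedicels, with 0 to 0.958 CPM in male pedicels and 0 to 0.803 CPM in male heads. AAEL017043 was not tested in the fit of males alone. AAEL014518 was higher in the pedicel in both sexes, but more so in males, at 36.98 ± 3.44 CPM in female and 154 ± 36.6 CPM in male pedicels. Its level in the heads was 9.08 ± 1.03 CPM in females and 9.42 ± 1.60 CPM in males. Its interaction log2 fold was 2.02 (SE 0.23, adjusted p = 2.5e-05). These 3 genes were singled out among the 442 after their values were seen, for the smallest p in each direction and for the most negative interaction.

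**Figure D5:**
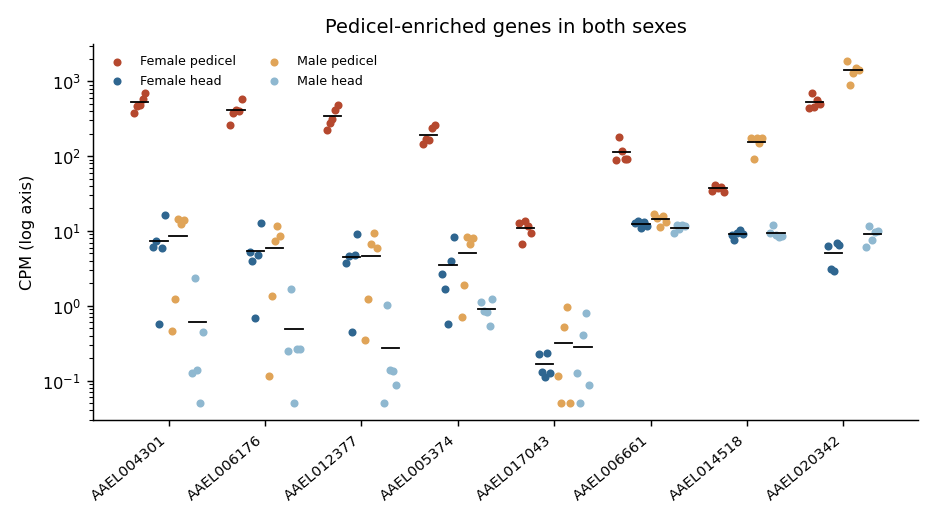
CPM on a log axis, on the scale of all 20 libraries, of 8 genes higher in the female pedicel, 1 point per library and a line at the mean of 5 for female pedicels, female heads, male pedicels and male heads. Libraries under 0.05 CPM are drawn at 0.05 CPM. For AAEL004301 to AAEL006661 every female pedicel lies above the other 15 libraries, while for AAEL014518 and AAEL020342 the male pedicels are highest.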

How the data were processed

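RNA was extracted with phenol and chloroform and libraries were built at a university centre, per the labels. Per the submitters' processing notes, the tools were FastQC, HISAT2 and featureCounts; for versions, genome build, annotation and strand setting the sources used here give nothing. The authors deposited estimated counts for 34477 transcripts, not scaled between libraries. These were summed by gene ID and rounded to whole numbers. The 10 female libraries were fitted alone with edgeR 4.0.16 in R 4.3.3 (filterByExpr by tissue, TMM, glmQLFit with robust estimates, glmQLFTest), with Benjamini-Hochberg adjustment over the 10595 genes tested. TMM factors ran from 0.685 to 1.093 in pedicels and from 1.187 to 1.225 in heads. Standard errors are the absolute log2 fold over the square root of F. The interaction came from 1 fit of all 20 libraries, whose CPM scale differs slightly from that of the female fit. Log2 CPM for principal components and correlations used a prior count of 2. Identical-copy transcripts had the same values to 3 decimals in all libraries and a maximum above 5. The fit was tested on simulated data.

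Libraries of 1 tissue differed by more than sampling noise in every pair (chi-square over degrees of freedom at least 5.27). The naming rule took, for genes without a name, the 2 largest rises and 2 largest falls among genes past the threshold whose tissues did not overlap and whose higher tissue averaged 10 CPM or more. All other IDs were chosen after their values were seen, as the text says. The genes, lists and tests were chosen with earlier results of these data known. The gene lists rest on names and were not used here. Alternatives were other scalings and filters, DESeq2 1.42.0, limma-voom (limma 3.58.1), a fit of all libraries, a block by library number and leaving out each library.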

Additional observations from a re-analysis of the deposited data

Results flagged for a closer look

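Of 56 groups of 5 values examined for a library far from the others, 2 had one, where chance gives about 1 in 20. Female pedicel 2 stood at 27.1% in the median level of the genes at least 4-fold lower in male pedicels, against 49.2% to 58.1% in the other 4 female pedicels. Female head 3 stood at 109.6% in the same measure, against 92.8% to 97.6% in the other 4 female heads.

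For 6 of the genes described, the difference between pedicel and head was not equal in the sexes (edgeR adjusted p under 0.05 for the interaction, given as log2 fold of males minus females). It was -6.23 for AAEL017043, -2.81 for AAEL006661 and 2.02 for AAEL014518, and each of these kept its call without any 1 of the 20 libraries and with the block by library number. It was -3.45 for AAEL005374, whose call was lost without male head 5 (adjusted p = 0.055). It was -2.43 for AAEL003116, lost in 12 of 21 changes of setting, and 0.87 for AAEL010772, lost in 11 of 21. Without male pedicel 2 the values were -3.65 for AAEL003116 (edgeR adjusted p = 9.2e-07) and 0.99 for AAEL010772 (adjusted p = 0.0036).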

How the results depend on the processing

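Over 12 changes of the planned settings and 10 libraries left out in turn, the count of higher genes kept within 1.5 times 1823 and that of lower genes within 1.5 times 1736 except with library totals alone (681 and 4247). At an adjusted p under 0.01, chosen after seeing the data as were the splits of pedicels, they were 1007 and 858. Leaving out 1 library gave 1564 to 1967 higher and 1407 to 1833 lower genes. The 442 genes at least 4-fold higher became 874 without a filter, and 430 to 502 without 1 library. The 9 genes at least 4-fold lower became 93 with library totals, 20 without a filter, 25 with limma-voom and 25 with its quality weights by tissue, 17 with all 20 libraries in 1 fit, 4 at an adjusted p under 0.01 and 15 without female pedicel 2 and head 3. They became 98 with only pedicels 1 and 2, 20 with only pedicels 3 to 5, and 7 to 21 without 1 library. The median log2 fold of the 493 head genes was -1.56 with library totals and ran from -1.08 to -0.91 without 1 library. Genes with an unequal difference in the sexes numbered 911 to 2694 without 1 library. Causes were not tested. Low counts limit the folds of genes under about 10 CPM.

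The labels do not say whether the library numbers pair the samples. Deviations of same-numbered pedicels and heads correlated at -0.02 to 0.38. In this measure 4 of the 5 pedicels did not correlate best with the head of their own number. Correlations from so few libraries cannot settle whether same-numbered samples share animals or a batch. With a replicate block, 1807 genes were higher and 1723 lower, 14 at least 4-fold lower, and 1990 had an unequal difference in the sexes. Among the 19 genes named from the fit, no log2 fold of pedicel over head reversed (0 of 619 values tried, interactions included), and only AAEL003116 lost its tissue call, in 14 of 26 changes.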
